A study of Mus musculus with 8 samples.

Results

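Interferon response genes are the genes that cells switch on when interferons bind their receptors. Type I interferons signal through the kinases JAK1 and TYK2 to a complex that includes STAT2 and IRF9 and binds the interferon-stimulated response element (ISRE) in promoters. Interferon gamma signals through JAK1 and JAK2 to factors that bind the gamma-activated site (GAS). The products include sensors of viral nucleic acid, enzymes and membrane proteins that block viral growth, GTPases that attack vacuoles holding microbes, and the proteasome subunits and transporters that prepare peptides for MHC class I. In liver both hepatocytes and resident macrophages can respond to interferon.

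The 37 genes described here are a list of this set given by name. Each symbol matched 1 row among the 55450 genes of the deposited tables, and all 37 were among the 13303 genes with enough counts for a test. By role they comprise 4 signalling genes (Stat2, Irf1, Irf7, Irf9), 4 sensors (Ddx58, Ifih1, Dhx58, Zbp1), 2 genes of the ISG15 system (Isg15, Usp18), 16 antiviral effectors, 8 interferon-inducible GTPases and 3 genes of antigen processing (Psmb8, Psmb9, Tap1).

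RNA was measured in livers of 8 mice, 4 per group, by sequencing of polyadenylated RNA. Controls were Cebpafl/fl mice without Cre (genotype Cre-, titled WT), so they carried the floxed Cebpa allele. Knockouts were CebpaΔHep mice (genotype Cre+, titled KO), in which Cebpa, encoding the liver transcription factor C/EBPα, was deleted in hepatocytes, and the labels name neither the promoter driving Cre nor the sex of the mice. Mice of both genotypes were matched for body weight, were 10 weeks old, had 5 days of liquid control diet and then had 4 weeks of liquid diet with 5% ethanol by volume, so every level below is a level under ethanol and no comparison with an ethanol-free diet was made. Nothing in the labels states that the livers of a group came from separate litters or cages, so their independence is not known. The p-values set the difference between groups against the spread among the 4 libraries within each group.

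The livers held 21048350 to 28148744 expected counts, and 1 count was worth 0.0341 to 0.0485 CPM (counts scaled to a common library size). Cebpa read 264 to 320 CPM in the controls and 5.44 to 9.26 CPM in the knockouts, a log2 fold change of -5.37, which matches the labels. The 6 hepatocyte markers had a summed level of 78066 to 113325 CPM in the controls and 102404 to 113220 CPM in the knockouts. Over all livers most of those counts came from 1 gene. The log2 fold changes of the 6 ran from -0.62 to 0.38, with 3 positive and 3 negative. Control 2 stood apart in the acute phase genes, with a mean log2 CPM of 10.3 over 10 of them against 4.49 to 7.04 in the other 7 livers. Because whole liver was sequenced, fewer cells of a type and less RNA per cell cannot be told apart in any value below. The edgeR test called 274 genes, or 2.06% of those tested, at a Benjamini-Hochberg adjusted p below 0.05.

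The promoters of these genes are shown first, since the ISRE is the DNA element that defines much of the group. RefSeq promoter windows on GRCm38.p6 (the mm10 build), running from 250 bases before to 50 bases after the start site, were found for 30 of the 37 genes. The 7 without a window were Dhx58, Zbp1, Usp18, Oas2, Mx2, Parp14 and Iigp1, and their promoters were not searched. Both strands were searched for the ISRE core GAAANNGAA, the GAS TTCNNNGAA and the C/EBP core TTGCNNAA. At least 1 ISRE core lay in the windows of 17 of 30 members (56.7%), against 9.76% of all 27025 genes with a window. A GAS match was found in 9 members (30%, against 9.55% of all genes). A C/EBP core was found in 2 members, Gbp3 and Ifi47 (6.67%, against 12.2% of all genes). The ISRE core was present in 6 of 7 GTPases, 7 of 13 antiviral effectors, both sensors with a window, Isg15 and Stat2, and in none of the 3 antigen processing genes. These matches are descriptions of the letters and not tests of binding.

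The members with 3 ISRE cores before the start site were Isg15, which encodes a ubiquitin-like protein joined to other proteins, and Ifit1, Ifit3 and Ifit3b, which encode proteins that recognise foreign RNA or act with those that do. The stretches below run from 6 bases before the first upstream match to 6 bases after the last, 5′ to 3′ on the gene's strand, with every ISRE core in capitals. In Ifit1, Ifit3 and Ifit3b the core reads on the opposite strand, so it appears as its reverse complement, and cores that start 6 bases apart overlap and share capitals.
Isg15, chr4:156200870-156200902, minus strand: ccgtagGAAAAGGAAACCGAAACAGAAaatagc
Ifit1, chr19:34640774-34640819, plus strand: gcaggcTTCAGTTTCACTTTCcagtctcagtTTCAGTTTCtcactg
Ifit3, chr19:34583368-34583441, plus strand: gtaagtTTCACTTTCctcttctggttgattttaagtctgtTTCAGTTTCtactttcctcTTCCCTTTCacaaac
Ifit3b, chr19:34607764-34607837, plus strand: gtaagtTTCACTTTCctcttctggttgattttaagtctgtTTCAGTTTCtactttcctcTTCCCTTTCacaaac
The Isg15 stretch held 3 cores that overlapped head to tail between 78 and 58 bases before the start site. The stretches of Ifit3 and Ifit3b were letter for letter the same, with steps of 34 and then 19 bases between cores, but lay 155 to 94 and 187 to 126 bases before the respective start sites. Their promoter windows shared a run of 169 identical bases.

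The 250 bases before the start site are given for the 6 most abundant members, of those with a window, that had an ISRE core there. Iigp1, next to Bst2 in abundance, had no window. Bst2, which encodes tetherin, a membrane protein that holds budding virions, was the most abundant of the 37. Irgm1, Igtp and Irgm2 encode immunity-related GTPases, Stat2 encodes the STAT of the type I pathway and Ifih1 encodes the RNA sensor MDA5. ISRE cores are in capitals.
Bst2, chr8:71537473-71537722, minus strand: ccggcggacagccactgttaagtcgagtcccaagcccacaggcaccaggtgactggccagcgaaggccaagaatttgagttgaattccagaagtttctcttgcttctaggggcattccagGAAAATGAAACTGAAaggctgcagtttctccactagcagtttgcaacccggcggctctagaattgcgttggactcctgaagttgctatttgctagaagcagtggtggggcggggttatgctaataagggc
Irgm1, chr11:48871421-48871670, minus strand: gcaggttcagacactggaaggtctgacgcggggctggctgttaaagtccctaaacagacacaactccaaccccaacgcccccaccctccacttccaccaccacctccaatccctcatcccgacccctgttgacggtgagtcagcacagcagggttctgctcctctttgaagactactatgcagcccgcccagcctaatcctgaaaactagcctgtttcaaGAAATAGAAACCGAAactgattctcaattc
Stat2, chr10:128270248-128270497, plus strand: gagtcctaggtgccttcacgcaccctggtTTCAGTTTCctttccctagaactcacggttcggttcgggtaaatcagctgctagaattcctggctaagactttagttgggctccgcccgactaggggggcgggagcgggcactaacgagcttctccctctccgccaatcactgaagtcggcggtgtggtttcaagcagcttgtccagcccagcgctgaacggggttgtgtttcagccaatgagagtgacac
Igtp, chr11:58199306-58199555, plus strand: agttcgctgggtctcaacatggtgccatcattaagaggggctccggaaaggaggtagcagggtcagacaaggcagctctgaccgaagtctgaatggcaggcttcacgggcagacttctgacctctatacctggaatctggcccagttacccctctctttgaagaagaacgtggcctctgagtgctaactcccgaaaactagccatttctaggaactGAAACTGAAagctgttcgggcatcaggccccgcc
Irgm2, chr11:58214727-58214976, plus strand: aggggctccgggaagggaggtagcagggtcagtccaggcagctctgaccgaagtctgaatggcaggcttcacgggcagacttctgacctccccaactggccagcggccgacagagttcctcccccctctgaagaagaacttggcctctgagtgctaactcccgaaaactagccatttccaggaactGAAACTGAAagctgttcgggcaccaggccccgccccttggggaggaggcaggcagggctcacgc
Ifih1, chr2:62646256-62646505, minus strand: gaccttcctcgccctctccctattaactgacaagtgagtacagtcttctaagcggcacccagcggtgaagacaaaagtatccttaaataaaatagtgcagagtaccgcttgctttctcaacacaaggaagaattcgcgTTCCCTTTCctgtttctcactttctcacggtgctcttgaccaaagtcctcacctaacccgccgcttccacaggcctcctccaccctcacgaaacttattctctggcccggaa
Bst2 and Irgm1 each held 2 overlapping cores, at 130 to 116 and 30 to 16 bases before the start site. In Bst2 a GAS match overlapped the first of them. Igtp and Irgm2, neighbours on chromosome 11, both had a GAS match a few bases before the core and shared a run of 61 identical bases. In Stat2 the core was the most distant, 221 to 213 bases before the start site.

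**Figure D1:**
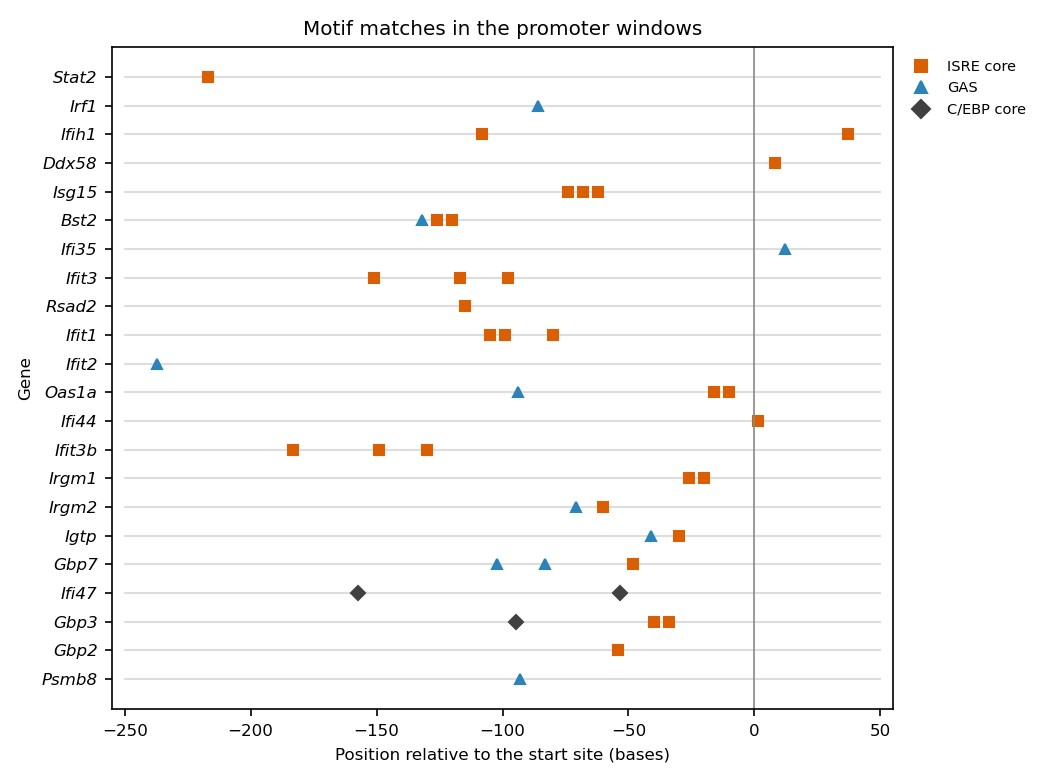
Positions of motif matches (squares, ISRE core; triangles, GAS; diamonds, C/EBP core) relative to the RefSeq start site in bases, for each of the genes with a match in a window of 250 bases before to 50 bases after the start. ISRE cores were found in 17 of the 30 genes with a window, and the arrays of Isg15, Ifit1, Ifit3 and Ifit3b hold 3 each.

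No interferon gene had more than 3 counts in all. Of 21 interferon ligand genes, 20 had 0 counts in all 8 livers, and the remaining gene, Ifng, had 3 counts, all in control 3. A count of 0 allows a level of up to 3 counts, which is 0.102 to 0.146 CPM per liver, counting error only. Plasmacytoid dendritic cells are a known source of type I interferon, and the 5 markers of that cell summed to 0.271 to 0.843 CPM in the controls and 0.411 to 1.11 CPM in the knockouts, none passing the filter on low counts. The 12 markers of T and natural killer cells, known sources of interferon gamma, summed to 1.65 to 2.98 CPM in the controls and 1.62 to 3.64 CPM in the knockouts.

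The 37 response genes were nonetheless all detected, across a wide range of levels. On the authors' TPM scale, which is adjusted for gene length and so allows genes to be compared, Bst2 had a mean level of 207 TPM over the 8 livers and Iigp1, an immunity-related GTPase, 109 TPM. Together these 2 genes made up 56.0% of the summed TPM of the group. Another 9 members lay between 10 and 100 TPM: Psmb8 (31.1), Irf7 (20.3), Irgm1 (19.8), Ifi35 (17.2), Stat2 (17.0), Psmb9 (12.0), Irf1 (10.7), Igtp (10.7) and Irf9 (10.5). Some of the best known interferon-stimulated genes were far lower, with Isg15 at 6.71 TPM, Ifit1 at 1.67 TPM, Rsad2 at 1.58 TPM and Oas2 lowest at 0.922 TPM. In this order of mean levels the range over the 8 livers was clear of the next gene's range for Bst2 and for Iigp1, and for none of the other 34 neighbouring pairs.

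None of the 37 genes differed between knockout and control livers at an adjusted p below 0.05, against 2.06% of all tested genes called. DESeq2 also called 0 of 37 (5.68% of the genes it tested were called), and limma-voom called 0 of 37 (1.77% of tested genes). The lowest adjusted p of a member was 0.128, for Oasl2. At an unadjusted p below 0.05, 9 of 37 members (24.3%) stood out, beside 18.5% of all genes tested. Of those 9, 6 had higher means in knockouts (9.61% of all genes) and 3 had lower means (8.9% of all genes). The median log2 fold change of the members was 0.007, with 19 positive and 18 negative values, and that of all tested genes was 0.004. Member values ran from -0.57 for Igtp to 0.68 for Oasl2. The 95% interval lay within a 2-fold change in either direction for 30 of 37 members (81.1%), beside 78.7% of all tested genes.

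**Figure D2:**
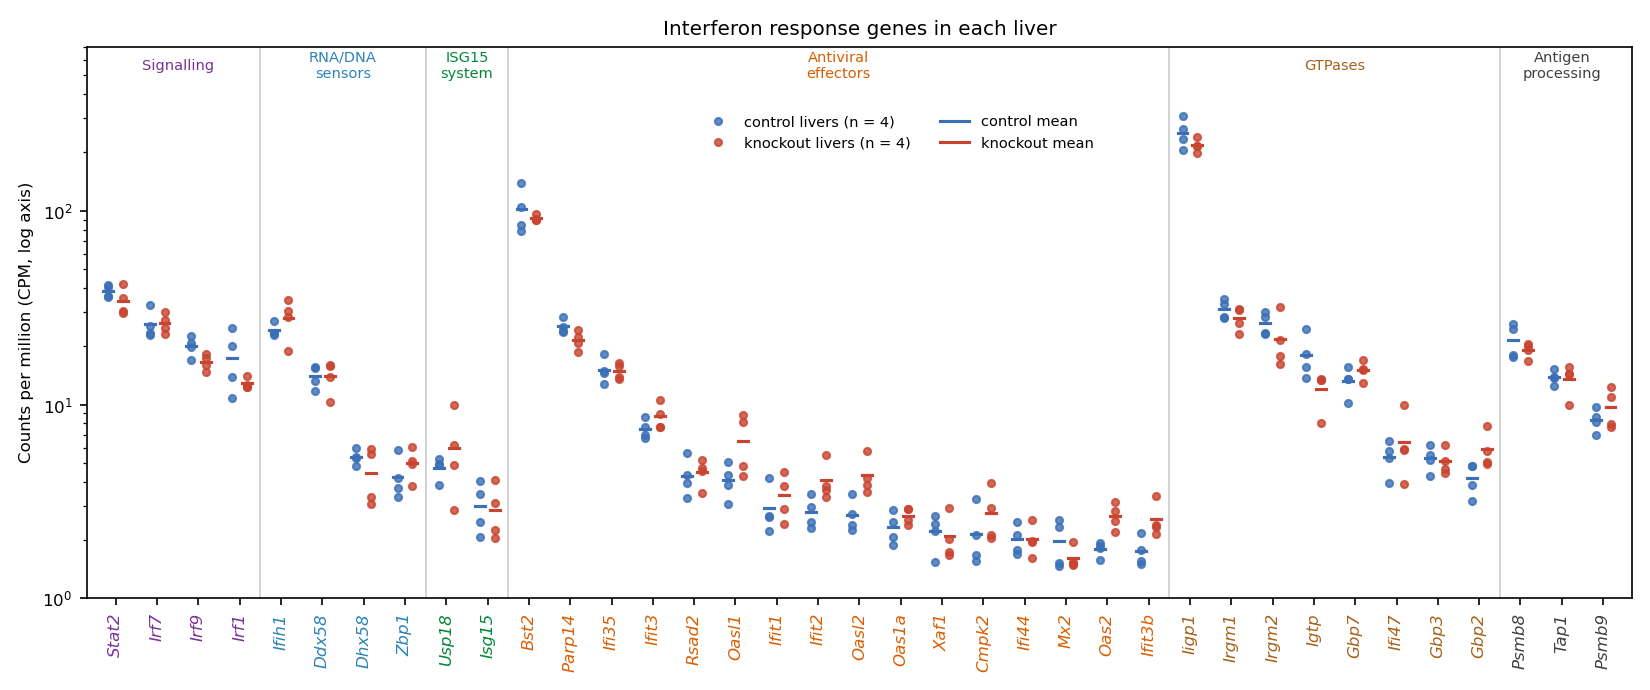
Level of each of the 37 genes in each liver, in CPM on a log axis, grouped by role. Points are livers (4 controls, 4 knockouts) and short lines are group means. Levels span from below 2 CPM (Oas2, Ifit3b) to above 200 CPM (Iigp1), and the groups are apart in Oas2, Oasl2, Gbp2 and Igtp.

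**Figure D3:**
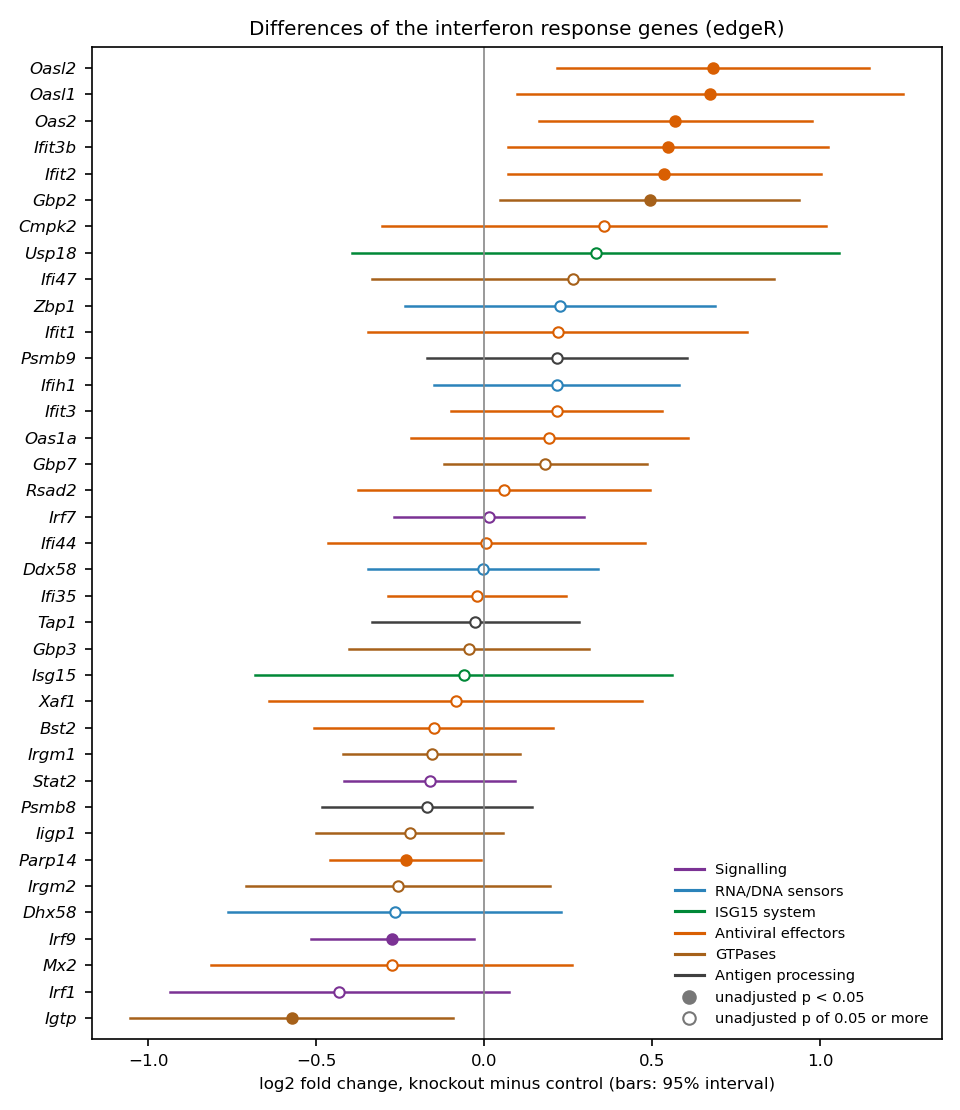
The log2 fold change of each gene, knockout minus control, with its 95% interval from edgeR, coloured by role. Filled points have an unadjusted p below 0.05. None passed the adjusted threshold, and the values range from -0.57 (Igtp) to 0.68 (Oasl2).

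Complete separation of the groups, every knockout liver above or below every control liver, was seen in 4 of 37 members, beside 11.5% of all genes tested. Oas2, Oasl2 and Gbp2 lay above in all knockouts (5.54% of all genes) and Igtp lay below in all knockouts (5.92%). On the authors' TPM, a comparison added after the values were seen, 4 members were also apart (12.6% of all genes), but not the same 4. Oas2, Gbp2 and Ifit3b lay above in all knockouts (10.2% of all genes) and Mx2 lay below (2.39%). The groups of Oasl2 and Igtp overlapped there: Oasl2 read 2.41 TPM in knockout 1 and 2.71 TPM in control 3, and Igtp read 9.04 TPM in control 1 and up to 10.43 TPM in the knockouts.

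Of 6 interferon receptor genes 5 were tested, and none passed the test in either direction, beside 2.06% of all tested genes called. At that share the absence of calls cannot set a short list apart, here or in the lists below. Ifnar2, a chain of the type I interferon receptor and the most abundant receptor gene at 59.3 TPM, read 45.7, 66.04, 40.0 and 48.3 CPM in the controls and 41.6, 43.1, 44.3 and 43.1 CPM in the knockouts. The groups overlapped, and control 2 was the highest liver. Il10rb, a chain shared by the type III interferon and interleukin 10 receptors, had a log2 fold change of 0.34 with an adjusted p of 0.269. The value for Ifngr1, a chain of the interferon gamma receptor, was 0.34 with an adjusted p of 0.304. Ifnlr1, the chain specific to type III interferon, stayed below the filter at 0 to 0.375 CPM.

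The kinases and STATs next to the receptors were likewise without a call in 5 of 5 tested genes (2.06% of all genes were called). Stat3, known mainly for relaying interleukin 6 signals, was the most abundant of the list and read 107, 109, 92.8 and 101 CPM in the controls and 79.6, 77.5, 79.5 and 88.7 CPM in the knockouts. All knockouts lay below all controls, and the log2 fold change was -0.33 with an adjusted p of 0.0665. Tyk2, a kinase of the type I receptor, had a log2 fold change of 0.15 with an adjusted p of 0.323.

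Stat2 and Irf9, which act together in the type I complex, both had lower mean levels in knockouts. Irf9 read 20.7, 22.7, 17.1 and 19.9 CPM in the controls and 16.1, 18.3, 14.7 and 17.4 CPM in the knockouts. Knockouts 2 and 4 overlapped control 3, and the log2 fold change was -0.27 ± 0.11 (SE, n = 4 per group; edgeR adjusted p = 0.218). Irf9 overlaps Rnf31 on the same strand, but its estimates were whole numbers in every liver and so show no division of reads between genes. Stat2 read 41.4, 36.4, 36.02 and 40.3 CPM in the controls and 35.6, 30.3, 29.8 and 41.8 CPM in the knockouts. The highest and the lowest liver were both knockouts (4 and 3), and the log2 fold change was -0.16 (adjusted p = 0.482).

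Irf1 and Irf7, transcription factors that are themselves interferon targets, behaved differently from each other in their spread. Irf1, which drives much of the interferon gamma response, read 20.1, 24.7, 10.8 and 13.9 CPM in the controls and 12.4, 14.1, 12.7 and 12.3 CPM in the knockouts. Controls spread over more than the whole range of the knockouts, with control 2, the liver of high acute phase genes, the highest, and the log2 fold change was -0.43 (adjusted p = 0.343), or -0.22 without control 2. Irf7, the amplifier of type I interferon production, had means of 26.1 ± 4.38 CPM in the controls and 26.3 ± 3.05 CPM in the knockouts (SD, n = 4 each), and its 95% interval ran from -0.27 to 0.30 on the log2 scale. Among 5 tested IRFs outside the 37, none was called (2.06% of all genes were). Irf8 had a log2 fold change of 0.35 with an adjusted p of 0.336. Irf3, the factor activated by nucleic acid sensors and the most abundant of these, had a value of 0.06.

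The inhibitors of the pathway were tested in 6 of 7 genes with no call (2.06% of all genes were called). Socs3, a suppressor of cytokine signalling, read 6.77, 12.8, 4.93 and 5.90 CPM in the controls and 2.61, 3.01, 3.98 and 4.40 CPM in the knockouts. All knockouts lay below all controls, and the log2 fold change was -1.11 with an adjusted p of 0.104. Ptpn6, the phosphatase SHP-1 of blood cells, had a log2 fold change of 0.40 with an adjusted p of 0.11. Cish, another suppressor and the most abundant of the list, ranged from 1.66 to 34.2 CPM among the knockouts alone.

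The sensors among the 37 showed no common direction. Ifih1, encoding MDA5, read 27.0, 23.3, 22.8 and 23.5 CPM in the controls and 34.8, 30.4, 28.3 and 18.8 CPM in the knockouts. In 3 of the knockouts it was above every control and in knockout 4 below every control, and the log2 fold change was 0.22 (adjusted p = 0.514). Dhx58, encoding the regulator LGP2, read 5.96, 4.80, 5.31 and 5.33 CPM in the controls and 5.88, 5.54, 3.34 and 3.07 CPM in the knockouts, with knockouts 3 and 4 below every control. Ddx58, encoding RIG-I, had means of 14.0 ± 1.88 and 14.0 ± 2.64 CPM (SD, n = 4 each) in controls and knockouts. Zbp1, a sensor of Z-form nucleic acid that can trigger cell death, had means of 4.25 ± 1.10 CPM in the controls and 4.97 ± 0.916 CPM in the knockouts (SD, n = 4 each). Of 14 other genes of nucleic acid sensing, 13 were tested and none was called (2.06% of all genes were). Ikbke, a kinase upstream of IRF3, had a log2 fold change of -0.43 (adjusted p = 0.177), Tlr7 had a log2 fold change of 0.64 (adjusted p = 0.304), and Mavs, the adaptor of RIG-I and MDA5 and the most abundant at 34.0 TPM, had a log2 fold change of -0.08.

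Isg15 read 4.02, 3.45, 2.06 and 2.47 CPM in the controls and 3.10, 4.07, 2.06 and 2.25 CPM in the knockouts, with near complete overlap and a log2 fold change of -0.06. Usp18, the protease that removes ISG15 and also restrains the type I receptor, had the widest spread of the 37 within groups. It read 3.84, 4.95, 5.22 and 4.90 CPM in the controls and 4.85, 9.93, 6.21 and 2.86 CPM in the knockouts. The highest and lowest livers, knockouts 2 and 4, were both knockouts, and the log2 fold change of 0.33 (adjusted p = 0.616) was -0.04 without knockout 2.

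Among the 16 antiviral effectors, 11 had positive and 5 negative log2 fold changes, and none was called. The split was 10 and 6 with DESeq2, and 13 and 3 on the authors' TPM, where the median of all genes was itself 0.09 (log2(TPM + 1)). In the reported fit the effectors had a median of 0.21, beside 0.004 over all genes. At an unadjusted p below 0.05, 5 were higher and 1 was lower, beside 9.61% higher and 8.9% lower of all genes. The 2′-5′ oligoadenylate synthetase family, whose active members make the messenger that switches on RNase L, supplied 3 of those 5. Oasl2, at chr5:114896936-114912234 on mm10, read 2.26, 2.72, 3.45 and 2.39 CPM in the controls and 3.55, 5.78, 3.84 and 4.19 CPM in the knockouts. Every knockout was above every control on this scale, the closest pair being control 3 and knockout 1. Its log2 fold change was 0.68 ± 0.21 (SE, n = 4 per group; edgeR adjusted p = 0.128), the highest of the 37.

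Oas2, at chr5:120730333-120749853, read 1.58, 1.94, 1.81 and 1.86 CPM in the controls and 2.20, 2.81, 2.51 and 3.14 CPM in the knockouts. Its groups were apart and its controls close together, with a log2 fold change of 0.57 ± 0.18 (SE, n = 4 per group; edgeR adjusted p = 0.139). Oasl1, which restrains translation of Irf7, read 3.84, 3.06, 4.34 and 5.03 CPM in the controls and 8.13, 8.78, 4.84 and 4.26 CPM in the knockouts. Knockouts 1 and 2 were above all controls whereas knockouts 3 and 4 lay among them, and the log2 fold change was 0.67 ± 0.26 (SE, n = 4 per group; edgeR adjusted p = 0.205). Oas1a, the remaining family member, had means of 2.33 ± 0.431 CPM in the controls and 2.67 ± 0.256 CPM in the knockouts (SD, n = 4 each). Its estimates were fractional in all 8 livers, so its reads are shared with other genes. Summed with its close copy Oas1g, added after values were seen, it gave 3.13 ± 0.568 CPM in the controls and 3.58 ± 0.437 CPM in the knockouts (SD, n = 4 each).

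All 4 Ifit genes had positive log2 fold changes. Ifit2 read 2.30, 2.96, 2.49 and 3.47 CPM in the controls and 3.64, 5.50, 3.34 and 3.79 CPM in the knockouts. Only control 4 and knockout 3 crossed, and the log2 fold change was 0.54 ± 0.21 (SE, n = 4 per group; edgeR adjusted p = 0.211). Ifit3b read 2.17, 1.504, 1.77 and 1.56 CPM in the controls and 2.16, 3.36, 2.33 and 2.39 CPM in the knockouts. The groups met at control 1 and knockout 1, and the log2 fold change was 0.55 ± 0.21 (SE, n = 4 per group; edgeR adjusted p = 0.211).

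Ifit3, the copy of Ifit3b with the identical ISRE array printed above, had a log2 fold change of 0.22 (adjusted p = 0.447). Both had fractional estimates in 7 of 8 livers, so the division of reads between them is uncertain. The sum of the pair was 9.84, 8.20, 8.76 and 10.2 CPM in the controls and 11.1, 14.0, 10.01 and 10.1 CPM in the knockouts. On the sum, knockouts 3 and 4 lay among the controls, and the ratio of means was 1.22. Ifit1 had a log2 fold change of 0.22 (adjusted p = 0.677), with knockout 2 the highest liver and control 2 the lowest.

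Parp14, an ADP-ribosyltransferase, was the effector with a lower mean and an unadjusted p below 0.05. It read 28.4, 25.2, 23.7 and 23.9 CPM in the controls and 20.8, 24.2, 18.7 and 22.2 CPM in the knockouts. Knockout 2 exceeded the lowest 2 controls, and the log2 fold change was -0.23 ± 0.10 (SE, n = 4 per group; edgeR adjusted p = 0.253). Bst2 read 105, 139, 84.0 and 78.9 CPM in the controls and 90.2, 89.4, 90.1 and 96.7 CPM in the knockouts. The knockouts were close together inside the control range, control 2 was the highest liver, and the log2 fold change of -0.15 became 0.03 without control 2.

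The other 6 effectors had groups that overlapped in CPM. Cmpk2, a mitochondrial nucleotide kinase next to Rsad2 in the genome, had a log2 fold change of 0.36 (adjusted p = 0.552), and Rsad2, encoding viperin, one of 0.06 (adjusted p = 0.9). Mx2, a dynamin-like GTPase, had a value of -0.28 (adjusted p = 0.574), with 1.97 ± 0.547 CPM in the controls and 1.62 ± 0.230 CPM in the knockouts (SD, n = 4 each). On the authors' TPM it read 1.76, 1.75, 1.24 and 1.76 in the controls and 1.02, 1.03, 1.13 and 1.02 in the knockouts. All knockouts were below all controls on that scale, and the difference in log2(TPM + 0.1) was -0.57 (limma-trend adjusted p = 0.12). Controls 3 and 4 had 35 counts each but 1.24 and 1.76 TPM, so the separation in TPM is not one in read numbers. The value from counts was -0.14 without control 2. Xaf1, a pro-apoptotic factor, had a log2 fold change of -0.08, Ifi44 one of 0.01 and Ifi35 one of -0.02.

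Among the 8 GTPases, Gbp2 lay above and Igtp below in all knockouts in CPM, and none was called. Guanylate-binding proteins coat and break open vacuoles of microbes. Gbp2, at chr3:142620602-142638008, read 4.83, 3.83, 4.84 and 3.17 CPM in the controls and 5.03, 7.79, 5.76 and 4.91 CPM in the knockouts. The groups were apart by a narrow margin, between control 3 and knockout 4, and the log2 fold change was 0.49 ± 0.20 (SE, n = 4 per group; edgeR adjusted p = 0.224). Gbp7 had a log2 fold change of 0.18 (adjusted p = 0.508) and Gbp3 one of -0.05 (adjusted p = 0.908), both with overlapping groups and shared reads.

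Of the 5 immunity-related GTPases, Igtp, which encodes Irgm3, had the lowest log2 fold change of the 37. The gene lies at chr11:58199556-58207591 and read 13.7, 15.7, 24.5 and 18.1 CPM in the controls and 13.6, 13.4, 7.997 and 13.3 CPM in the knockouts. Control 1 and knockout 1 differed by a small margin, control 3 was the highest liver and knockout 3 the lowest, and the log2 fold change was -0.57 ± 0.21 (SE, n = 4 per group; edgeR adjusted p = 0.198). Igtp and Irgm2 overlap on the same strand of chromosome 11, and both had fractional estimates in all 8 livers. Irgm2 read 23.4, 28.2, 23.2 and 30.1 CPM in the controls and 17.9, 21.5, 16.3 and 32.0 CPM in the knockouts, so 3 knockouts were below every control and knockout 4 was above them. The sum of both genes was 37.1, 43.9, 47.7 and 48.2 CPM in the controls and 31.5, 34.9, 24.3 and 45.3 CPM in the knockouts, a ratio of means of 0.769, with knockout 4 among the controls.

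Iigp1 read 309, 234, 207 and 263 CPM in the controls and 215, 199, 216 and 239 CPM in the knockouts. The groups overlapped and the log2 fold change was -0.22 (adjusted p = 0.379). Irgm1, a regulator of the other GTPases, had a log2 fold change of -0.16 (adjusted p = 0.515). Ifi47, also known as IRG-47, had a value of 0.26 (adjusted p = 0.632), which was -0.04 without knockout 4, with its highest liver, knockout 4, at 9.96 CPM and its lowest, knockout 3, at 3.88 CPM.

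Psmb8 and Psmb9, subunits of the immunoproteasome, and Tap1, a subunit of the transporter that carries peptides into the endoplasmic reticulum, sit side by side on chromosome 17. Psmb8 had means of 21.5 ± 4.38 CPM in the controls and 19.1 ± 1.62 CPM in the knockouts, and Psmb9 had 8.33 ± 1.12 CPM and 9.68 ± 2.26 CPM (SD, n = 4 each). Tap1 had means of 13.8 ± 1.13 CPM in the controls and 13.6 ± 2.49 CPM in the knockouts (SD, n = 4 each). Their log2 fold changes were -0.17, 0.22 and -0.03, and knockout 3 was the lowest liver for both Psmb8 and Tap1. The 5′ ends of Psmb9 and Tap1, which read away from each other, overlap on opposite strands.

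Downstream of antigen processing, the list of MHC class I presentation held the only called gene among the 111 tested genes of the other pathway lists. That 1 call in 111 stands beside 2.06% of all tested genes called. H2-Q7, a non-classical class I gene, read 57.5, 80.4, 45.9 and 44.9 CPM in the controls and 21.2, 23.5, 24.0 and 37.1 CPM in the knockouts. It fell by 1.11 on the log2 scale, with an SE of 0.23 and an edgeR adjusted p of 0.0496. That call was lost in 12 of 19 alternative analyses, among them every fit that left out 1 liver other than knockout 4 (adjusted p = 0.0635 to 0.151). H2-Q6 is a near copy, named after its values were seen, with which reads may be shared, and the sum of both was 76.7 ± 19.7 CPM in the controls and 40.7 ± 8.91 CPM in the knockouts (SD, n = 4 each).

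Of the 14 class I genes, 12 had negative log2 fold changes (10 on the authors' TPM), with a median of -0.23. On the log2(TPM + 1) scale their median was -0.07 and that of all genes 0.09, against 0.004 for all genes in the reported fit. In the reported fit an unadjusted p below 0.05 was found for 5 of the class I genes, all lower, beside 8.9% lower of all genes. B2m, the shared light chain and the most abundant of the list at 2033 TPM, had a log2 fold change of -0.40 with an adjusted p of 0.0771. Nlrc5, the transactivator of class I genes and itself a gamma target, read 15.8, 13.7, 15.2 and 13.6 CPM in the controls and 11.01, 10.2, 11.5 and 11.5 CPM in the knockouts. All knockouts were below all controls, with a log2 fold change of -0.40 and an adjusted p of 0.0593.

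The class II genes had the opposite sign. All 6 had positive log2 fold changes, under every scaling tried, with a median of 0.66, none called and 4 with an unadjusted p below 0.05, beside 9.61% higher of all genes. H2-Eb1 read 12.8, 10.2, 17.1 and 9.32 CPM in the controls and 17.7, 32.6, 17.7 and 23.1 CPM in the knockouts, a log2 fold change of 0.88 (adjusted p = 0.112). H2-Ab1 had a value of 0.73 (adjusted p = 0.133) and Cd74, the invariant chain and the most abundant, one of 0.64 (adjusted p = 0.169). Ciita, their transactivator, read 0.767, 0.631, 0.674 and 0.477 CPM in the controls and 1.30, 1.54, 1.23 and 1.30 CPM in the knockouts. The groups were apart, and the log2 fold change was 1.07 with an adjusted p of 0.0519, which passed the threshold in 3 of 19 alternative analyses. Class II genes mark antigen-presenting cells, and the 12 macrophage markers moved in the same direction, with 12 of 12 positive, a median log2 fold change of 0.55, none called, and sums of 200 to 413 CPM in the controls and 320 to 531 CPM in the knockouts. Their part in the class II values was not tested.

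Interferon-induced genes beyond the 37 were also without a call, beside 2.06% of all tested genes called. Of 42 other interferon-stimulated genes, 38 were tested, 23 had positive and 15 negative log2 fold changes, the median was 0.13, and none was called. Dtx3l, a ubiquitin ligase partner of the PARP proteins, had a log2 fold change of -0.32 (adjusted p = 0.114), and Slfn5 one of 0.39 (adjusted p = 0.139). Ifitm3, which blocks viral entry and was the most abundant at 601 TPM, had a value of -0.08. Of 20 other genes of the gamma response, 19 were tested, 13 were positive, the median was 0.28, and none was called. Gm4951, the most abundant of them and a close copy of Iigp1, had a log2 fold change of -0.11 (adjusted p = 0.699).

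**Figure D4:**
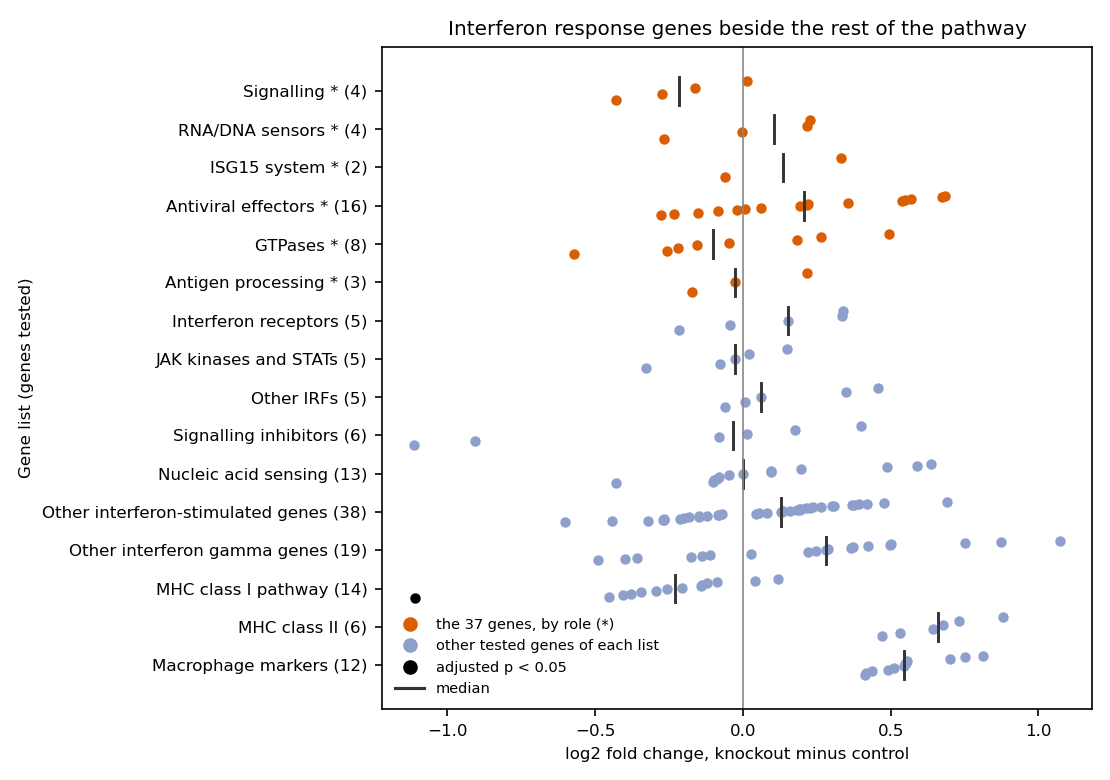
The log2 fold change of every tested gene, knockout minus control, by list: the 37 genes by role (orange), the other pathway lists and macrophage markers (blue), with genes at an adjusted p below 0.05 in black and medians as bars. H2-Q7 is the black point. The 37 genes lie on both sides of 0, and the 6 class II genes and 12 macrophage markers all lie above 0.

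Knockouts 2 and 3 held many of the extreme values. Knockout 2 was the highest of the 8 livers in 15 of 37 members (40.5%), beside 15.2% of all tested genes. Knockout 3 was the lowest liver in 10 members (27.0%, beside 9.49% of all genes) and the highest in 0. Over the 16 effectors, the mean deviation from the 8-liver mean on the log2 scale was 0.38 in knockout 2, and between -0.16 and 0.07 in the other 7 livers. Without knockout 2, 15 of 37 members had positive log2 fold changes, 5 had an unadjusted p below 0.05 (13.6% of all genes in that fit), of which 2 were higher and 3 lower, and the median was -0.05. The spread within groups was a median SD of 0.27 on the log2 scale for members, beside 0.21 for all tested genes. For the 10430 tested genes in the members' range of mean log2 CPM it was 0.18.

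Macrophage markers and acute phase genes also differed between livers. The mean log2 CPM of the 12 macrophage markers was 3.76, 4.67, 4.56 and 3.57 in controls and 4.29, 4.99, 4.90 and 4.80 in knockouts. Knockout 2 was thus the highest liver for these markers, while knockout 3, the lowest liver for 10 of the members, came next. The acute phase genes were lowest in the knockouts, at 4.49 to 5.35, against 5.56 to 10.3 in controls.

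Markers of several other cell types, but not of all, also had positive log2 fold changes. The 1 tested marker of T and natural killer cells, of 12, had a value of -0.38 and was not called. The whole list of 12 summed to 1.65 to 2.98 CPM in the controls and 1.62 to 3.64 CPM in the knockouts, which overlapped. The 6 hepatocyte markers had 3 positive and 3 negative values. Of 6 cholangiocyte markers, 5 were tested and all 5 were positive, with a median log2 fold change of 1.48. Of these 5, 3 were called, beside 113 genes called higher among all 13303 tested. The summed level of the cholangiocyte markers was 25.6 to 63.8 CPM in the controls and 115 to 363 CPM in the knockouts, with no overlap. The 2 tested markers of B and plasma cells, of 6, had a median log2 fold change of 1.86, none called, and the whole list summed to 4.29 to 6.70 CPM in the controls and 6.03 to 37.5 CPM in the knockouts. All 6 endothelial markers were positive with a median of 0.24, and summed to 110 to 139 CPM in the controls and 128 to 168 CPM in the knockouts. All 6 stellate cell markers were positive with a median of 0.33, and summed to 102 to 210 CPM in the controls and 177 to 285 CPM in the knockouts, none of either list called. The part of these cell types, of macrophages and of the acute phase genes in the interferon gene values was not tested.

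**Figure D5:**
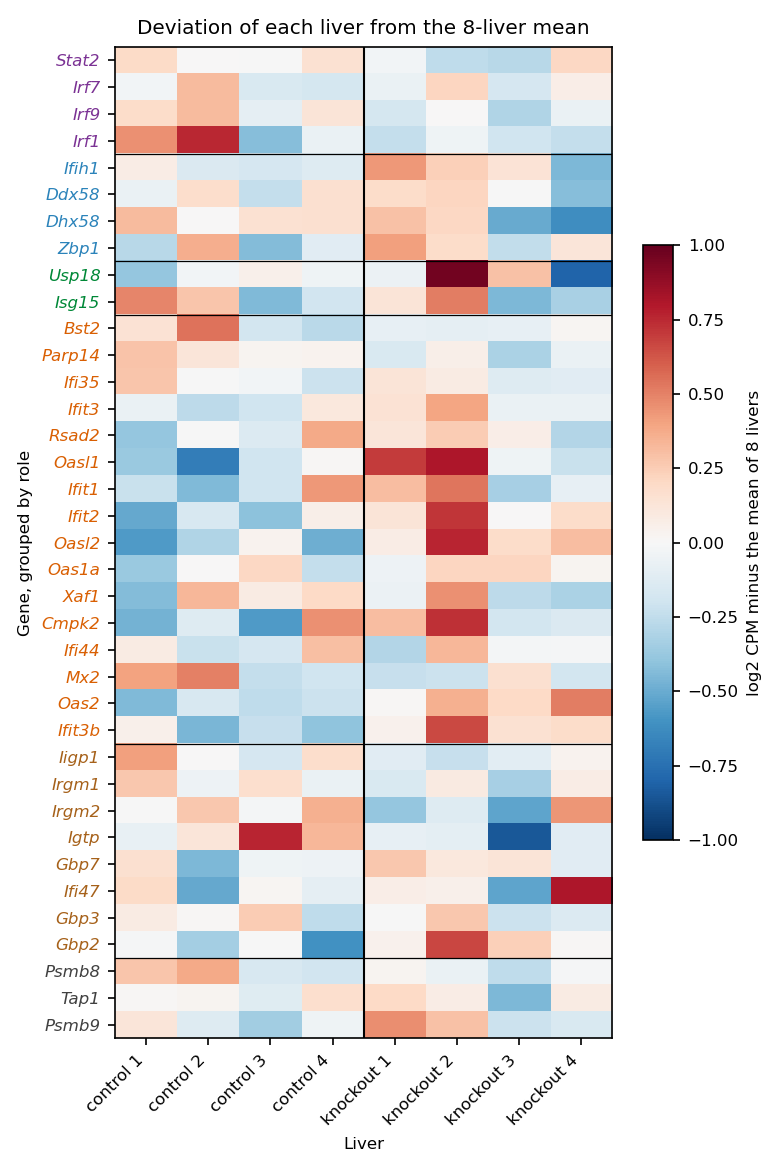
Deviation of each liver from the 8-liver mean for each of the 37 genes, in log2 CPM, with red above and blue below the mean and the scale ending at -1 and 1. Columns are the 4 controls and 4 knockouts and rows are grouped by role. Knockout 2 is red in most rows and knockout 3 is blue for most GTPases and antigen processing genes.

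Counts of individual members set the precision of these values. Counts per liver ran from 31 to 7014, and 6 members stayed below 100 counts in every liver. Estimates were fractional (more than 0.005 from a whole number) in at least 1 liver for 10 members, where reads are shared with another gene. By annotation 6 members overlap another gene on the same strand and 12 on the opposite strand, and the strand setting of the counting is not given in the sources used here. Of these overlapping members Gbp7, Igtp, Irgm2 and Ifi47 had fractional estimates, so their reads may be shared with the partner. The others had whole-number estimates in every liver, which show no such division. Reads counted wholly for the wrong gene would not be seen this way.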

How the data were processed

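Liver polyadenylated RNA was sequenced from TruSeq stranded mRNA libraries, per the labels' protocols. Tools listed in the submitters' processing notes are RSEM 1.2.22, STAR 2.5.1, Trimmomatic 0.36, Picard 1.84 and DESeq2, with the build mm10. The authors deposited RSEM expected counts, estimated counts per gene that divide shared reads, and TPM, scaled for length and to a fixed total. The annotation release is not given in the sources used here, and all 55450 identifiers were found in GENCODE M21, which gave coordinates and overlaps on mm10.

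Rounded expected counts were fitted by edgeR 4.0.16 (R 4.3.3). The filter was filterByExpr (at least 10 counts, total at least 15), and TMM gave the scaling. Differences, knockout minus control, were tested two-sided by the robust quasi-likelihood method, and p-values were adjusted by Benjamini-Hochberg over 13303 genes, with a threshold of 0.05. Intervals are 95% intervals from the fold change, its SE and the t distribution. CPM use TMM-scaled library sizes, and log2 CPM a prior count of 2. DESeq2 1.42.0 and limma 3.58.1 served as alternatives, and the steps were tested on simulated data. Figures used matplotlib.

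Groups follow the WT or KO of each title. Same-numbered livers deviated together at correlations of 0.207, 0.009, -0.024 and -0.067, and no label ties the numbers, so they were not used as pairs. No livers of a group agreed within sampling noise. Members and lists were chosen with earlier results of these data known. All 37 members were to be named, and of each pathway list every called gene, the 2 with the smallest p and the most abundant by TPM. A gene that this rule names is not reported here. Promoter sequences come from RefSeq (GRCm38.p6), with 29 of 34 member windows ending in an annotated transcript of the gene.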

Additional observations from a re-analysis of the deposited data

Results flagged for a closer look

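Each group of 4 livers was checked for a liver whose gap to its nearest neighbour took most of the group's range (Dixon's 95% critical value). Of 74 groups, 4 had such a liver, and chance flags about 1 in 20 groups. Igtp read 7.997 CPM in knockout 3, against 13.3 to 13.6 CPM in the other knockouts. Bst2 read 96.7 CPM in knockout 4, against 89.4 to 90.2 CPM in the other knockouts, a small gap in a tight group. Mx2 read 1.97 CPM in knockout 3, against 1.48 to 1.53 CPM in the other knockouts. Ifih1 read 27.0 CPM in control 1, against 22.8 to 23.5 CPM in the other controls.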

How the results depend on the processing

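All 37 members stayed above the adjusted threshold in the reported fit and in each of 19 alternatives (2 scalings, 2 filters, DESeq2, limma-voom, limma-trend on TPM, no robust estimation, the replicate block, each liver left out, control 2 and knockout 4 left out together). The lowest adjusted p of a member was 0.0622 (Oasl2, DESeq2). Genes called over the whole table numbered 274, and 844 with DESeq2, 176 with the replicate block, 431 without control 2 and knockout 4 together, and 108 (without knockout 2) to 372 (without knockout 4) with single livers left out. They divided into 113 higher and 161 lower, and into 161 higher and 115 lower with library size alone. With the replicate block no member was called and H2-Q7 was not (adjusted p = 0.127). Of 703 member values under alternatives, 701 stayed within 1 within-group SD of the reported value, and 55, over 12 members none of which was called, had the other sign. That SD is a lenient measure, since its median over the members was 0.27, above their median absolute log2 fold change of 0.22. Members at an unadjusted p below 0.05 numbered 4 without control 2 (16.2% of all genes in that fit) and 12 without knockout 4 (22% of all genes), and 6, all higher, with library size alone (19.4% of all genes). With log2(TPM + 0.1) the median of all genes was shifted to 0.12 and that of the members to 0.11. Depth limits the least abundant members, with 31 counts in the lowest liver.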
